A study of Homo sapiens with 6 samples.

Results

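MIR, L2 and L3 elements are old interspersed repeats, described here by 10 of the 1047 sequences in the deposited tables. Members were chosen by name alone, as every sequence whose name starts with MIR, L2 or L3. MIR stands here for the mammalian-wide interspersed repeat and not for a microRNA gene. The 10 were 4 MIR sequences (MIR, MIRb, MIRc and MIR3), 4 L2 sequences (L2, L2B, L2C and L2D) and 2 L3 sequences (L3 and L3b_3end). Of these, 8 had a count in any library, and 7 reached 10 counts in 1 library or more and were tested.

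RNA came from H1 human embryonic stem cells, an established line, grown to between passage 40 and passage 60. All cells, controls included, carried a short hairpin RNA against EXOSC3 that doxycycline (dox) induces, and there was no line without it. EXOSC3 belongs to the RNA exosome, a nuclease complex that shortens and destroys RNA starting at the 3' end. The cells also carried an empty vector (PB) or EXOSC3r, an EXOSC3 transgene that the hairpin does not target. PB cells gave 1 library without and 1 with dox, and each of 2 EXOSC3r clones gave the same pair, 6 libraries in all. Each clone is thus a single line, and the PB condition has no replicate. EXOSC3 itself was not analysed here, so depletion and rescue were not checked. HERVH and its LTR7 promoters, known for transcription in human pluripotent cells, held between 2.79% and 6.29% of counts, and other markers of the cell type were not used here. The counts assigned to the 1047 sequences totalled 3745262 to 5260196 per library, which is not sequencing depth. The dox and no-dox libraries of a clone share that clone. Nothing in the labels describes repeat cultures of a line, so p-values measure the spread between these libraries.

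L2 is a long interspersed element (LINE), an old relative of L1 that copied itself through an RNA intermediate with enzymes it encoded. L3 is a further old LINE, of the CR1 group. MIR is a short interspersed element (SINE) with a head derived from a tRNA, and its end resembles that of L2, whose enzymes are thought to have copied it. These families no longer move in the human genome. Their many decayed copies lie in introns, untranslated regions and between genes, so RNA that matches them comes largely from within longer transcripts. The tables give no positions, so the copies behind the counts cannot be told apart.

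The members were a small part of the assigned counts. How many reads from their decayed copies still match the sequences counted here was not tested. The shares below, with that of Alu, are therefore shares of assigned counts and not of the RNA. Of the counts in the PB library without dox, all members together held 0.0932% (0.0904 to 0.0961, a 95% Clopper-Pearson interval), and of those with dox 0.0947% (0.0919 to 0.0976). The clone 1 shares were 0.0951% (0.0923 to 0.0979) before and 0.0918% (0.0892 to 0.0944) under dox. The clone 2 shares were 0.0881% (0.0852 to 0.0911) and 0.106% (0.103 to 0.110). All intervals cover counting error only. Clone 2 with dox was the highest library, and its interval lay above those of the other 5. Alu, the abundant SINE of primates, held between 33.0% and 52.5% in the same libraries.

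L2 was the member with the most counts. It had 2577 estimated counts in PB cells, 2666 in PB cells with dox, 2889 and 3188 in clone 1 without and with dox, and 2191 and 2656 in clone 2. CPM values, counts brought to a common library size with the trimmed mean of M values (TMM), were 503 and 481 in PB cells, 716 and 815 in clone 1, and 548 and 647 in clone 2. On this scale both PB libraries lay below all 4 EXOSC3r libraries, and clone 1 was highest.

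MIR had 873 and 840 estimated counts in PB cells without and with dox, 762 and 815 in clone 1, and 664 and 695 in clone 2. Its CPM was 170 and 152 in PB cells, 189 and 208 in clone 1, and 166 and 169 in clone 2. MIR was the steadiest tested member, with 1.37-fold between the lowest and the highest library. On this TMM scale clone 1 was highest, and PB cells and clone 2 overlapped. With total assigned counts or ACTB plus GAPDH as the reference, MIR was lower in clone 1 than in clone 2 (log2 difference -0.15 and -0.37).

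MIRc had 74.8 and 89.4 CPM in PB cells without and with dox, 106 and 122 CPM in clone 1, and 85.2 and 90.7 CPM in clone 2. MIR3 had 50.0 and 39.2 CPM in PB cells, 73.3 and 80.5 CPM in clone 1, and 51.8 and 46.3 CPM in clone 2. For both, the clone 1 libraries were the 2 highest on the TMM scale, while PB cells and clone 2 overlapped. With total assigned counts or ACTB plus GAPDH as the reference, MIRc was not higher in clone 1 than in clone 2 (log2 difference -0.02 and -0.24).

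MIRb, of the same 268-base length as MIRc, behaved otherwise. It had 15.3 and 16.5 CPM in PB cells without and with dox and 14.3 and 13.4 CPM in clone 2, but 0.783 and 3.63 CPM in clone 1. In clone 1 this rested on 3.16 and 14.2 estimated counts, against 55.1 to 91.5 in the other 4 libraries. The range between libraries was 21.1-fold, whereas it was between 1.37-fold and 2.05-fold for L2, MIR, MIRc and MIR3.

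**Figure D1:**
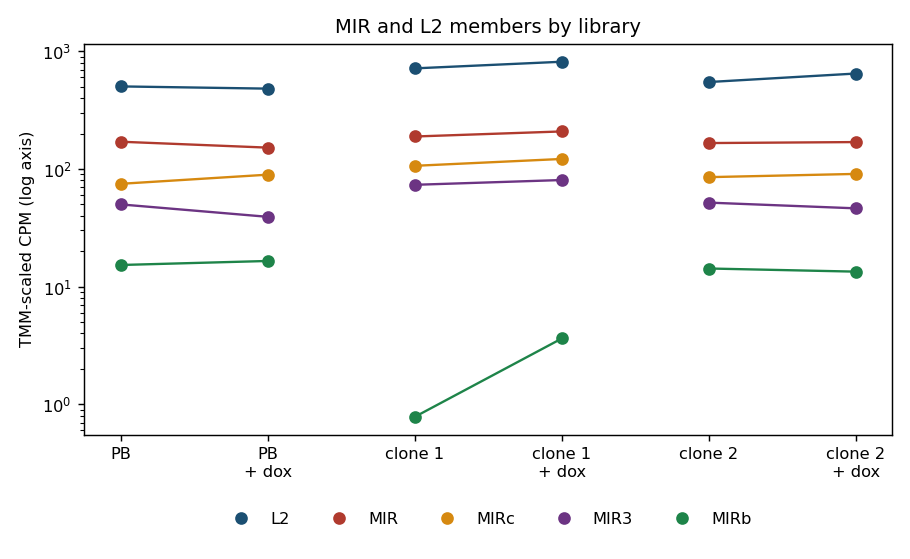
TMM-scaled CPM (log axis) of the 5 members with the most counts in each of the 6 libraries. Points are single libraries and lines join the libraries of 1 line without and with dox. L2 is highest in all libraries, and MIRb is at 13.4 to 16.5 CPM in PB cells and clone 2 and at 0.783 and 3.63 CPM in clone 1.

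The remaining members were at or near the limit of counting. L2B had 8 to 13 estimated counts per library. L3, though its sequence is the longest of all members at 4489 bases, had 10 counts in PB cells and 2 with dox, 1 and 11 in clone 1, and 4 and 0 in clone 2. The high and low L3 libraries did not follow dox or line. L2C had 1 count in each clone 2 library and 0 in the other 4. L2D and L3b_3end were listed at 0 in all 6 libraries, which allows a share of up to 5.70e-05% to 8.01e-05% by counting error alone (3 counts of the total). No fold is given for L3 and L2B at these counts.

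Levels of different members can be compared only per length, here as estimated counts per kilobase of the effective length, which is the length reduced for fragment size. The order was MIR, MIRc, MIR3, L2, MIRb, L2B and L3. MIR had 5660 to 7624 counts per kb, above the highest MIRc value of 4026 in every library. MIRc (2742 to 4026 counts per kb) was above MIR3 (2253 to 3732 counts per kb) within each of 6 libraries, though their ranges overlapped. L2 had 671 to 979 counts per kb, below MIR3 in each library. MIRb (25.9 to 744 counts per kb) was below L2 within each library, and it was above L2B in 5 of 6, the exception being clone 1 without dox. Thus L2 led by counts and the shorter MIR sequences led per length. Both are orders of assigned counts, because how well reads from decayed copies match each sequence was not tested. The effective length of MIR was 114 to 117 bases of 260 and that of MIR3 84.2 to 86.4 bases of 224, so their values per kb lean on the estimated fragment size. For L2, 3256 to 3263 of 3419 bases were effective.

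Some reads fit several of the sequences and were divided between them by estimation, which leaves fractions in the counts. MIR3 had whole counts (within 0.001) in 6 of 6 libraries and L2 in 5 of 6. MIR, MIRb and MIRc had fractional counts in 6 of 6. Values of MIR, MIRb and MIRc therefore depend on this division. The whole counts of L2 and MIR3 show little sign of it, but how many of their reads also fit other sequences is not known.

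The 4 MIR sequences kept a similar division in most libraries. MIR took 50.3% to 54.9% of the MIR-named counts, MIRc 24.1% to 30.1% and MIR3 13.2% to 19.9%. MIRb took 4.92% and 5.57% in PB cells without and with dox and 4.50% and 4.20% in clone 2, but 0.212% and 0.876% in clone 1. Summed, MIRb and MIRc had 90.1 and 106 CPM in PB cells, 107 and 125 CPM in clone 1, and 99.5 and 104 CPM in clone 2. MIRb, at 13.4 to 16.5 CPM outside clone 1, was a small part of this sum.

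**Figure D2:**
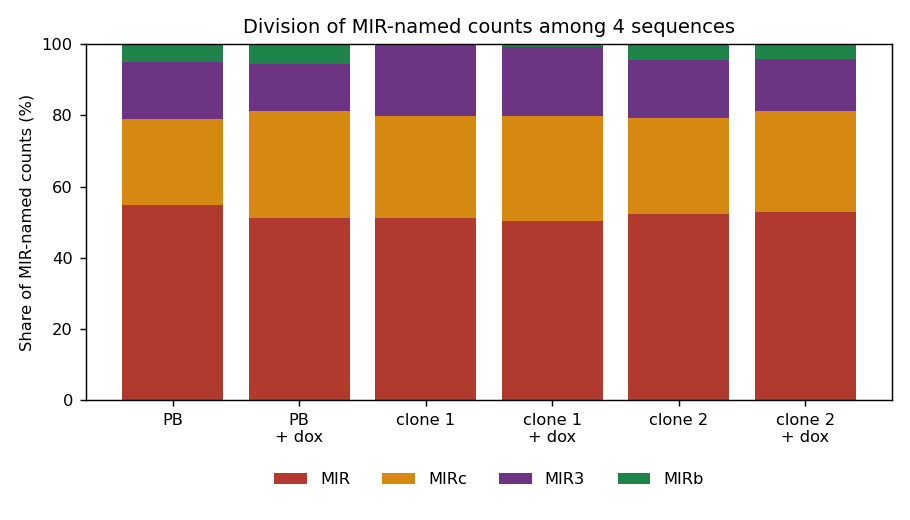
Share of the MIR-named estimated counts (%) given to MIR, MIRc, MIR3 and MIRb in each library, as stacked bars that add to 100%. MIRb is 4.20% to 5.57% in PB cells and clone 2 and under 1% in clone 1, while MIR holds 50.3% to 54.9% throughout.

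The response to hairpin induction without the transgene was asked in PB cells. Of 7 tested members, 0 passed in the edgeR quasi-likelihood test at a Benjamini-Hochberg adjusted p under 0.05, where 0.858% of all 699 tested sequences passed. At an unadjusted p under 0.05 there were 0 members (4.01% of all), and with DESeq2 also 0, where 6 of 699 sequences passed. The log2 change was -0.06 ± 0.22 (SE) for L2, with a 95% interval of -0.60 to 0.47. It was -0.17 ± 0.18 for MIR (-0.60 to 0.26) and 0.26 ± 0.25 for MIRc (-0.36 to 0.87). It was -0.35 ± 0.42 for MIR3 and 0.13 ± 1.25 for MIRb. All had an adjusted p of 1.00 in the edgeR test. The median over the 7 members was -0.06, beside 0.0037 over all tested sequences. With 1 library per arm, the spread comes from the clones, and the interval of MIR3 reached from -1.36 to 0.66.

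In EXOSC3r cells, again 0 of 7 members passed (0.143% of all sequences did), with 0 at an unadjusted p under 0.05 (3.15% of all). With DESeq2 also 0 members passed, where 4 of 699 sequences did. L2 averaged 632 ± 119 CPM in the clones before dox and 731 ± 119 CPM under it (SD, n = 2), a log2 change of 0.21 ± 0.16 (95% interval -0.17 to 0.59; edgeR adjusted p = 1.00). Each of the 2 clones had more L2 under dox. MIR was at 177 ± 16.1 and 189 ± 27.7 CPM, a change of 0.09 ± 0.13, and MIRc at 95.8 ± 14.9 and 106 ± 21.8 CPM, a change of 0.15 ± 0.18. MIR3 was at 62.5 ± 15.3 and 63.4 ± 24.2 CPM, and MIRb at 7.52 ± 9.53 and 8.52 ± 6.92 CPM. Within clone 1 and clone 2 the log2 change was 0.19 and 0.24 for L2, 0.14 and 0.03 for MIR, 0.19 and 0.09 for MIRc, 0.13 and -0.16 for MIR3, and 2.21 and -0.09 for MIRb. Only MIR3 and MIRb, of these 5, moved in opposite directions in the clones. With the clone as a replicate block the L2 change was 0.21 ± 0.04 (adjusted p = 0.16), and again 0 of 7 members passed. The member median was 0.15, beside 0.0052 over all tested sequences.

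The responses were then compared directly. The PB response minus the EXOSC3r response was -0.27 ± 0.27 for L2 (95% interval -0.93 to 0.38), -0.26 ± 0.22 for MIR, 0.11 ± 0.31 for MIRc, -0.37 ± 0.51 for MIR3 and -0.06 ± 1.61 for MIRb, on the log2 scale. In this edgeR interaction test 0 of 7 members passed, as did 0% of all sequences. There were 0 members at an unadjusted p under 0.05 (1.29% of all), and 0 with DESeq2 (3 of 699 sequences passed).

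A dox response common to PB cells, clone 1 and clone 2 was tested with the line as a block, so that each dox library is compared with its own line. MIRc was higher with dox in all 3 lines, by 0.26, 0.19 and 0.09 on the log2 CPM scale. It was the only one of 7 members to be so, where 16.6% of all tested sequences were, and 0 members were lower in all 3 (15.7% of all were). The MIRc change was 0.18 ± 0.07 (95% interval 0.01 to 0.35), with an unadjusted p of 0.036 and an edgeR adjusted p of 0.43. Summed with MIRb it was 0.18 ± 0.07 (adjusted p = 0.40). For L2 the change was 0.12 ± 0.06 (-0.01 to 0.25; adjusted p = 0.52), for MIR -0.00061 ± 0.07 (-0.15 to 0.15) and for MIR3 -0.12 ± 0.12 (-0.39 to 0.15). In this fit the intervals hold no change of L2 beyond 0.25 or of MIR beyond 0.15 on this scale. Without the line block L2 was at 0.12 ± 0.13, and with ACTB and GAPDH scaling at 0.17 ± 0.145. Larger changes of L2 are therefore not excluded. Of 7 members 0 passed (1.72% of all did), with 1 at an unadjusted p under 0.05 (10.3% of all). With DESeq2, which gave MIRb no adjusted p, 0 members passed, where 10 of 699 sequences did. MIRc did not pass in any alternative.

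The families summed gave the same reading. The 4 MIR sequences together had 310 and 297 CPM in PB cells without and with dox, 369 and 414 CPM in clone 1, and 317 and 320 CPM in clone 2. Their common dox change was 0.04 ± 0.05 (edgeR adjusted p = 0.87). The 4 L2 sequences had 505 and 484 CPM, 719 and 817 CPM, and 551 and 649 CPM, with a change of 0.12 ± 0.06 (adjusted p = 0.52). An exact two-sided sign-flip permutation test over the 3 lines gave p = 0.75 for MIR and p = 0.50 for L2 (adjusted p = 0.75 for both over 5 such tests), and 3 lines cannot give less than 0.25.

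EXOSC3r cells were compared with PB cells under dox, the transgene against the empty vector during induction. Transgene and line differ together in this comparison and in the one without dox, so their effects cannot be told apart. L2 had 731 ± 119 CPM (SD, n = 2) against 481 CPM, a log2 difference of 0.60 ± 0.20 with a 95% interval of 0.13 to 1.08. Its unadjusted p was 0.021 and its edgeR adjusted p 0.61, so it did not pass. MIR3 was at 0.69 ± 0.37, MIR at 0.32 ± 0.16, MIRc at 0.25 ± 0.22 and MIRb at -0.96 ± 1.11. Of 7 members 0 passed (1% of all did), with 1 at an unadjusted p under 0.05 (7.58% of all). With DESeq2 0 members passed, where 7 of 699 sequences did. With the line as a block, L2 passed (0.59 ± 0.05, adjusted p = 0.013), as did 22 of all 699 sequences, against 7 without the block, but this block leaves the spread between clones uncounted in a comparison of different lines. The summed L2 sequences differed by 0.60 ± 0.19 (edgeR adjusted p = 0.61). Their difference was 0.41 without the clone 1 library with dox and 0.76 without the clone 2 library with dox. L2 alone was at 0.42 and 0.76 in these fits, each of which leaves a single clone in that arm.

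The direction of this L2 difference depended on the reference. Against TMM, total assigned counts moved the median of all sequences by -0.40 and ACTB plus GAPDH moved it by -0.64. Before such a shift is removed the L2 difference was 0.17 with total counts, -0.07 with ACTB plus GAPDH, and -0.20 with limma on log2 TPM at either pseudocount. L2 was thus higher in EXOSC3r cells relative to the median sequence and to all counts, and lower relative to those 2 transcripts and on the TPM scale. The summed MIR sequences were 0.30 higher by TMM, -0.13 by total counts and -0.38 by ACTB plus GAPDH.

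Without dox, the L2 difference between EXOSC3r and PB cells was 0.33 ± 0.19 (95% interval -0.14 to 0.80; edgeR adjusted p = 0.97), or 0.04 with total counts and -0.18 with ACTB plus GAPDH before the shift is removed. MIR was at 0.06 ± 0.15, MIRc at 0.36 ± 0.22, MIR3 at 0.32 ± 0.36 and MIRb at -1.02 ± 1.14. Of 7 members 0 passed, as did 0% of all sequences, with 0 at an unadjusted p under 0.05 (2.29% of all). With DESeq2 0 members passed, as did 0 of 699 sequences. The comparisons with and without dox use different libraries of the same lines.

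**Figure D3:**
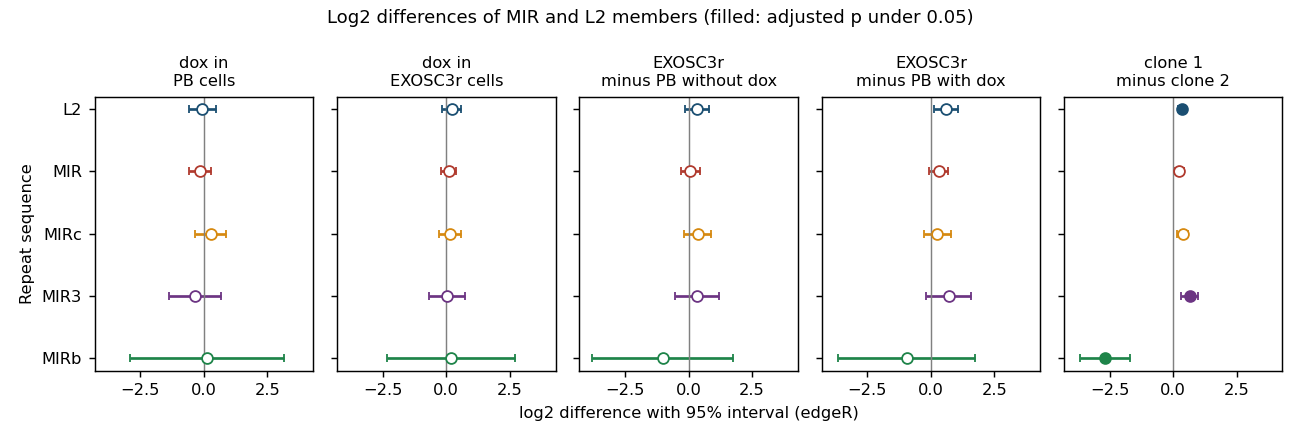
Log2 differences (x axis) of the 5 members with the most counts in 5 comparisons, with 95% intervals from the edgeR fit; filled points have an adjusted p under 0.05. In the 4 comparisons of dox or of EXOSC3r with PB cells every point is open, and L2 for EXOSC3r minus PB under dox lies at 0.60. Between the clones L2 and MIR3 are filled above 0 and MIRb is filled at -2.69.

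The clones were compared after the MIRb values had been seen, with dox as a term, so this comparison was chosen from the data. Clone 1 differed from clone 2 for 3 of 7 members, where 3.29% of all sequences passed (at an unadjusted p under 0.05, 5 of 7 and 16.2%). MIRb was lower in clone 1 by -2.69 ± 0.43 on the log2 scale (95% interval -3.66 to -1.71; edgeR adjusted p = 0.013), in 2 of 2 arms. It was -4.14 without the clone 1 library with dox and -1.96 without the one lacking dox. L2 was higher by 0.36 ± 0.07 (0.20 to 0.52; adjusted p = 0.029) and MIR3 by 0.65 ± 0.15 (0.32 to 0.99; adjusted p = 0.046), both in 2 of 2 arms. MIRc (0.37 ± 0.09, adjusted p = 0.061) and MIR (0.24 ± 0.08, adjusted p = 0.18) did not pass. The members' median was 0.36, beside 0.0098 over all sequences. MIRb and MIRc summed to 1 sequence differed by 0.19 ± 0.09 (adjusted p = 0.34), which did not pass. Since MIRb was the reason for the comparison, its p is a description. Each clone is a single line, and the values of these same libraries were already known. The p-values of L2 and MIR3 are therefore descriptions too.

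Each of these clone calls was lost without some library. L2 did not pass without either clone 2 library (adjusted p = 0.14 without the library lacking dox and 0.12 without the one with dox). MIR3 did not pass without PB (0.14), PB with dox (0.083), clone 1 with dox (0.12), clone 2 (0.12) or clone 2 with dox (0.27). MIRb did not pass without PB (0.12), PB with dox (0.069) or clone 2 with dox (0.083). L2 and MIR3 did not pass with total counts, ACTB and GAPDH scaling or limma on TPM, in which MIRb did. Those fits moved the median of all sequences by -0.39 with total counts, -0.61 with ACTB plus GAPDH, and -0.56 and -0.58 with limma. Of all 699 sequences, 61 (8.73%) then passed with total counts and 451 (64.5%) with ACTB plus GAPDH, all of them lower in clone 1. With limma 31 (4.43%) passed, all lower, and 29 (4.15%), of which 28 were lower, so a lower call in these fits includes that shift. Before the shift of all sequences is removed, L2 was at -0.03 with total counts and -0.25 with ACTB plus GAPDH, so its direction depended on the reference. MIR, at -0.15 and -0.37, and MIRc, at -0.02 and -0.24, were also below 0 in these 2 scalings. L2-named counts per 1000 L1M counts were 31.5 and 36.0 in clone 1 without and with dox and 24.1 and 28.4 in clone 2. MIR3 stayed above 0 (0.26 and 0.04) and MIRb below 0 (-3.11 and -3.32) in these 2 scalings. Clone 1 also held the most Alu (45.4% and 52.5% of counts, against 41.8% and 40.1% in clone 2) and the most ACTB plus GAPDH (17.0% and 16.2%, against 14.3% and 14.1%). Their part in the clone differences was not tested.

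A ratio inside a library does not depend on scaling between libraries. All members together gave 2.50 counts per 1000 Alu counts in PB cells and 2.87 with dox, 2.09 and 1.75 in clone 1, and 2.11 and 2.65 in clone 2. The log2 change with dox was 0.20 in PB cells, -0.26 in clone 1 and 0.33 in clone 2, with a mean of 0.09 ± 0.31 (SD, n = 3 lines; exact sign-flip permutation p = 0.75). Against Alu, then, clone 1 went the other way from the other lines.

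Relative to L1M, the L1 sequences shared by mammals, the members gave 36.0 counts per 1000 in PB cells and 34.5 with dox, 47.7 and 54.4 in clone 1, and 38.1 and 42.5 in clone 2. All 4 EXOSC3r libraries lay above both PB libraries on this ratio, and clone 1 was highest. The mean log2 dox change was 0.10 ± 0.14 (SD, n = 3 lines; exact permutation p = 0.50). TMM-scaled L1M itself stayed between 22623 and 22827 CPM, so this ratio follows the TMM values closely.

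Relative to ACTB plus GAPDH, the members gave 6.96 counts per 1000 in PB cells and 7.49 with dox, 5.59 and 5.68 in clone 1, and 6.15 and 7.53 in clone 2. This ratio was higher with dox in 3 of 3 lines, with a mean log2 change of 0.14 ± 0.14 (SD, n = 3; exact permutation p = 0.25, the smallest that 3 lines allow). The change in clone 1 was 0.02, against 0.11 in PB cells and 0.29 in clone 2. Over the 5 exact tests of sums and ratios, all adjusted p-values were 0.75. L2, with the most counts, weighs on these all-member changes. Without L2 the mean log2 dox change was 0.08 against ACTB plus GAPDH, 0.04 against L1M and 0.03 against Alu, and with the TPM of all members summed it was 0.09, 0.05 and 0.03.

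**Figure D4:**
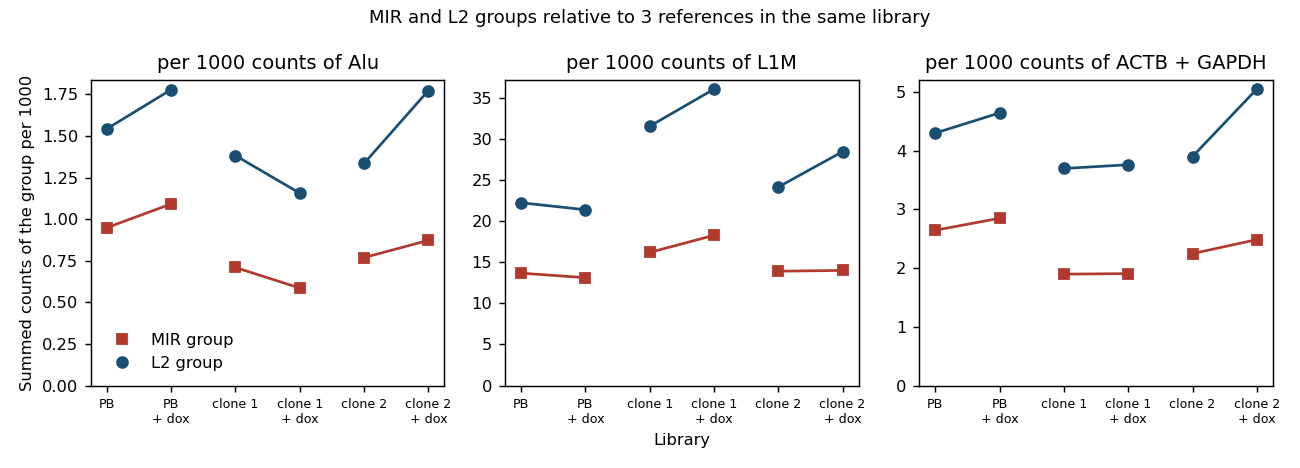
Summed estimated counts of the MIR and L2 groups per 1000 counts of Alu, of L1M and of ACTB plus GAPDH in each library; lines join the libraries of 1 line without and with dox. Clone 1 is lowest against ACTB plus GAPDH and highest against L1M, and the dox change against Alu is -0.26 for all members in clone 1 and above 0 in the other lines.

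MIR and L2 counts were also set against each other. MIR-named counts were 0.615 and 0.614 of L2-named counts in PB cells without and with dox, 0.513 and 0.507 in clone 1, and 0.576 and 0.492 in clone 2. The proportion was highest in both PB libraries. Clone 2 with dox, which had the highest member share, had the lowest.

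Other old repeats were counted for comparison from a list of 114 names, among them CR1, L4, L5, HAL1, THER, UCON and EUTREP sequences. Of these, 19 had a count in any library and 6 were tested, and none of the 6 passed in any of the 7 comparisons (unadjusted p under 0.05: 0 in each). UCON107, with the highest mean CPM of the list, had 7.18 to 16.9 CPM. HAL1, an old LINE related to L1, had 7.41 to 11.0 CPM, and THER1 had 6.62 to 10.8 CPM. HAL1 had a log2 change of 0.04 ± 0.39 with dox in PB cells and -0.08 ± 0.30 in EXOSC3r cells. All of them were below the lowest CPM of L2, MIR, MIRc and MIR3. CPM is not corrected for length, so this is an order of counts and not of levels.

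The pattern of the summed members over the 6 libraries was set against that of 251 other sequences with a mean of at least 100 CPM. The most alike by Pearson correlation of log2 CPM were LTR2C (r = 0.99), LTR17 (0.99), HSFAU (0.96), TIGGER1 (0.96) and MER85 (0.96). These are 5 of 251 chosen for their likeness over 6 libraries that share lines and scaling, so the values are descriptions only.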

How the data were processed

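The authors ran Salmon 0.13.0 after bcl2fastq 2.17 and Trimmomatic 0.36, per the submitters' processing notes; their index, settings and build are not given in the sources used here. The libraries were rRNA-depleted, stranded total RNA, per the labels' protocols. The estimated counts are as deposited, without scaling between libraries. TPM, per the file headers, is deposited beside them with lengths and effective lengths, and covers the 1047 sequences alone.

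Members and lists were chosen with earlier results of these data known. Estimated counts were rounded and tested on all 699 sequences with at least 10 counts in at least 1 library, using edgeR 4.0.16 (R 4.3.3; quasi-likelihood, TMM, Benjamini-Hochberg over all sequences, threshold 0.05), with 4 group means or, for the common dox response and the clones, line plus dox; each has 2 residual degrees of freedom. Single PB libraries take the clones' spread as their own. The SE was derived from the log2 change and its F statistic. Any member with a count could be named; L2D and L3b_3end, listed at 0, are named to account for all members. The 95% intervals of log2 changes come from the same fit. The code was tested on simulated counts. No library was a copy of another (chi-square per degree of freedom 20.9 to 860 over the library pairs). Dox and no-dox libraries of a clone share the clone and are paired by it; clone deviations without and with dox had r = 0.15 over 699 sequences and 0.60 over 253 with a mean of at least 100 CPM. Alternatives were other scalings, DESeq2 1.42.0, limma 3.58.1 on log2(TPM + 1) and log2(TPM + 0.1), other count filters, an effective-length offset, the block and leaving out libraries. ACTB and GAPDH were matched by RefSeq accession.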

Additional observations from a re-analysis of the deposited data

How the results depend on the processing

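Log2 values here have the shift of the median sequence removed where a setting moved it by over 0.1; the adjusted p-values are those of the unshifted fits. The comparison of the clones, with its alternatives, and the summing of MIRb and MIRc were chosen after seeing the data. Of 732 log2 differences under the alternatives, 662 kept their direction and side of the threshold, 29 reversed and 36 lost their call, while 5 gained one. Direction was judged after that removal, so a sign that turned with the shift alone counts as kept. An example is L2 for EXOSC3r minus PB with dox under ACTB and GAPDH scaling, at -0.07 before and 0.56 after it. For the changes that follow, the cause was not tested.

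With total counts, dox in PB cells was 0.026 for L2, 0.028 for summed L2 and 0.024 for summed MIR, and dox in EXOSC3r cells was -0.075 for MIR3. MIR3 in EXOSC3r cells was also -0.026 with ACTB and GAPDH, -0.0024 with limma on log2(TPM + 1) and -0.0070 with the replicate block. The MIR change over the 3 lines was 0.049 with ACTB and GAPDH, 0.0072 with the effective-length offset and 0.0038 without the replicate block. With the replicate block, 1 member passed for EXOSC3r minus PB with dox, L2, where 22 of 699 sequences passed against 7 without the block; summed L2 was then 0.59 ± 0.05 (adjusted p = 0.018). The block changed no other call.

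Leaving out 1 clone library gave, for dox in EXOSC3r cells, 0.024 to 0.42 for L2, -0.11 to 0.27 for summed MIR, -0.073 to 0.23 for MIR, -0.082 to 0.35 for MIRc, -0.44 to 0.36 for MIR3 and -1.06 to 3.47 for MIRb. The difference of the dox responses ranged from -0.48 to -0.086 for L2, -0.33 to 0.053 for summed MIR, -0.087 to 0.34 for MIRc, -0.71 to 0.092 for MIR3 and -3.34 to 1.18 for MIRb. For EXOSC3r minus PB, MIR without dox ranged from -0.037 to 0.15, L2 without dox from 0.12 to 0.51 and with dox from 0.42 to 0.76, and summed L2 with dox from 0.41 to 0.76. Leaving out 1 line, the dox change over the remaining lines ranged from -0.027 to 0.087 for summed MIR and from -0.071 to 0.084 for MIR.

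For the clones, 3 members passed by edgeR with TMM and 1 with DESeq2, where 15 of 699 sequences passed. Also 1 passed with each of total counts (8.73% of all sequences), ACTB and GAPDH scaling (64.5%) and both limma fits (4.43% and 4.15%). When 1 library or the PB line was left out, 0 to 4 members and 0% to 6.46% of all sequences passed. DESeq2 gave MIR3 and MIRb no adjusted p. Summed MIR was 0.29 with total counts (adjusted p = 0.69), 0.29 with ACTB and GAPDH (0.096), 0.29 with DESeq2 (0.18), and 0.30 and 0.32 with limma (0.44 and 0.44). Summed L2 was 0.35 with total counts (0.90), 0.35 with ACTB and GAPDH (0.19), and 0.32 and 0.33 with limma (0.54 and 0.53). Before the shift was removed, summed MIR was -0.09 with total counts and -0.31 with ACTB and GAPDH. Summed L2 was then -0.03 and -0.25, so both signs depended on the reference. Without 1 library or the PB line, summed MIR ranged from 0.21 to 0.39 and summed L2 from 0.27 to 0.45. MIRb was left out by a filter of 10 counts in all libraries. L3, L2B, L2C, L2D and L3b_3end had too few counts for a change to be measured.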
